A study of Mus musculus with 5 samples.

Results

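Heat shock proteins and their J-domain partners were followed in leukocytes sorted from mouse lung. The members were all rows whose gene symbol names an Hsp90, an Hsp70 or Hsp110 (Hspa, Hsph1), a small heat shock protein (Hspb), a chaperonin subunit (Hspd1, Hspe1), a DnaJ protein of class A, B or C, the heat shock factors Hsf1 and Hsf2, or a Bag cofactor. The same name pattern takes in Hspbp1 and Hspbap1, which bind heat shock proteins. This rule, which uses names and no measured value, found 67 of the 14462 rows. One of them, Hspa9-ps1, is annotated as a processed pseudogene. The IR group consisted of 2 libraries and the ctrl group of 3, all from lung cells sorted for CD45, the surface protein of nearly all leukocytes, and collected 3 days after irradiation. Both groups carried tumours of MC38, a mouse colon adenocarcinoma line (labelled MC38/MC38, a notation the labels do not explain). MC38 tumours were irradiated in the study, and the labels do not say more of what IR and ctrl received. No source used here gives the dose, the strain, sex and age of the mice, or says whether a library came from 1 animal or a pool, so p-values measure only the spread between these libraries, which may be technical.

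Chaperones bind unfolded or partly folded proteins and help them to fold, to cross membranes or to reach the proteasome. Hsp70 proteins do this in cycles of ATP hydrolysis. DnaJ proteins deliver clients and speed up the hydrolysis through their J domain, and Bag proteins, Hsph1 and related factors release the nucleotide. Hsp90 takes over clients that are nearly folded, among them kinases and steroid receptors. Each compartment has its own set: Hspa8 and Hsp90ab1 in the cytosol, Hspa5 and Hsp90b1 in the endoplasmic reticulum (ER), Hspa9, Hspd1 and Hspe1 in mitochondria. Heat-inducible members, such as Hspa1a and Hspa1b, are induced by Hsf1, which binds heat shock elements. The ER set is induced by the unfolded protein response, in part through ER stress elements. In leukocytes chaperone genes also respond to warming, enzymatic dissociation and activation of the cells.

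The letters of both elements could be read in the promoters of several members, which is why these stretches are shown. A RefSeq promoter, taken as 250 bases before to 50 after the start of transcription (GRCm38.p6), was matched for 53 of the 67 members. The other 14 were Bag4, Dnajc2, Dnajc5, Dnajc11, Dnajc12, Dnajc18, Dnajc30, Hsf1, Hsp90aa1, Hsp90ab1, Hspa8, Hspa9, Hspa9-ps1 and Hspa13. The heat shock element with 3 units, GAANNTTCNNGAA or TTCNNGAANNTTC on the other strand, was present for 4 of the 53 (7.55%) against 0.662% of 27025 genes. The looser form with 2 units, GAANNTTC or TTCNNGAA, which lies inside every 3-unit match, was present for 14 of the 53 (26.4%) against 17.0% of all genes, among them Hspa1a, Hspa1b, Dnaja1, Dnajb4 and Bag3. The ER stress element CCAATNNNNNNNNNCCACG, or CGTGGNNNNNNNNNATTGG on the other strand, was present for 3 of the 53 (5.66%) against 0.137% of all genes. Such a match describes letters in this window and is not evidence of binding. In the lines that follow, capitals mark the matches, each sequence reads 5′ to 3′ on the strand of its gene, and all lie upstream of the RefSeq start. Longer isoforms in GENCODE vM21 start further out, so that the stretches of Hspd1, Dnajb6 and Hspa5 fall in an annotated 5′ UTR. Hspd1 and Hspe1 lie head to head and share 1 stretch, which is given on the strand of Hspe1. Hsph1 is the fourth gene with 3 units; its match lies after the start and is not shown.
Hspe1 and Hspd1, chr1:55088054-55088081, plus strand: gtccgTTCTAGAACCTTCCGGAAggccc
Dnajb6, chr5:29735847-29735869, plus strand: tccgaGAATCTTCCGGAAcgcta
Hspa5, chr2:34772020-34772048, plus strand: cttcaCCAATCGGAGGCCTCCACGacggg
Dnajc3, chr14:118937822-118937850, plus strand: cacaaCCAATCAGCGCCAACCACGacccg
Hsp90b1, chr10:86705528-86705661, minus strand: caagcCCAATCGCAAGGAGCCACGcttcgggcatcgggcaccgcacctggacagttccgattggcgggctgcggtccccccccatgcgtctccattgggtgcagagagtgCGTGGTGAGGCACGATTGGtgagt

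The values analysed were the authors' scaled read counts, which summed to 7544034 and 8414753 in IR and from 7232126 to 7425923 in ctrl. This corresponds to approximately 8013734 to 10172122 reads per library. IR replicate 2 stood apart from the other libraries: on the first principal component, which held 41.6% of the variance, it scored 131.5 while the other libraries were below 0, and 12471 genes were above 0 in it against 12846 to 13785. Ptprc, which encodes CD45, was at 17369 and 27247 in IR and at 15543 to 15842 in ctrl. The summed value of 8 neutrophil markers was 48853 and 98294 in IR against 19674 to 33455 in ctrl, with 4 of the 8 called higher and none at 0 in any library. All 8 lay above ctrl in both IR libraries, against 15.2% of all genes. The sum of 10 epithelial markers was 117370 and 56939 in IR against 22894 to 26786 in ctrl, with 2 of the 10 called higher (Scgb1a1 and Scgb3a2) and Foxj1 at 0 in IR replicate 2. Scgb1a1, the secretoglobin of club cells, made up most of it, and the other 9 summed to 13398 and 5950 in IR against 6220, 3671 and 3566 in ctrl, with overlap. Of the 10, 4 were above ctrl in both IR libraries and 1, Epcam, was below, at 45.8 and 74.8 in IR against 133 to 185 in ctrl. T cell markers, 7 in number, summed to 2556 and 2222 in IR and to 3775 to 4098 in ctrl, with 1 of the 7 called lower. All 7 had negative fold changes, and 5 lay below ctrl in both IR libraries, against 16.3% of all genes. The 6 B cell markers, all with negative fold changes, summed to 5044 and 3932 in IR and to 4883 to 8696 in ctrl, with 1 called lower. Among markers of alveolar macrophages (6), monocytes (4) and NK cells (3), 0 were called. Of the 6 alveolar macrophage markers, 4 had negative and 2 positive fold changes. Ear2 and Fabp4 lay below ctrl in both IR libraries, against 16.3% of all genes, and 0 of the 6 lay above. All monocyte and NK markers overlapped between groups. The neutrophil, epithelial and T cell sums separate the same libraries as the comparison below, while the B cell sum overlaps between groups. The part of these cell types in the results of that comparison was not tested. In bulk RNA, fewer cells of a type and less RNA per cell cannot be told apart.

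None of the chaperone genes passed the test between IR and ctrl. Of the 67 members, 64 reached a value of 10 in at least 2 libraries and were tested, and 0 were higher and 0 lower at an adjusted p under 0.05 (limma, Benjamini-Hochberg over all 12777 genes tested). Over all genes, 192 or 1.50% passed, 146 higher and 46 lower, so a count of 0 among 64 is near that background. With libraries rescaled to equal totals the split over all genes was 141 higher and 116 lower. At an unadjusted p under 0.05 there were 5 members (7.81%) against 15.0% of all genes. A count-based test on approximate whole reads, edgeR's quasi-likelihood test, also called 0 members at an adjusted p under 0.05, against 1.17% of all genes. At an unadjusted p under 0.05 it had 4 members, and the share of all genes at that threshold is not given here. The median log2 fold change of the members was -0.03 against -0.05 for all genes tested, with 30 members above and 34 below 0. Without IR replicate 2 there were again 0 members called, with a median of -0.02, and without ctrl replicate 1 the median was 0.08. Both IR libraries lay above all ctrl libraries for 11 members (17.2%) against 15.2% of all genes, and below them for 13 members (20.3%) against 16.3%.

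**Figure D1:**
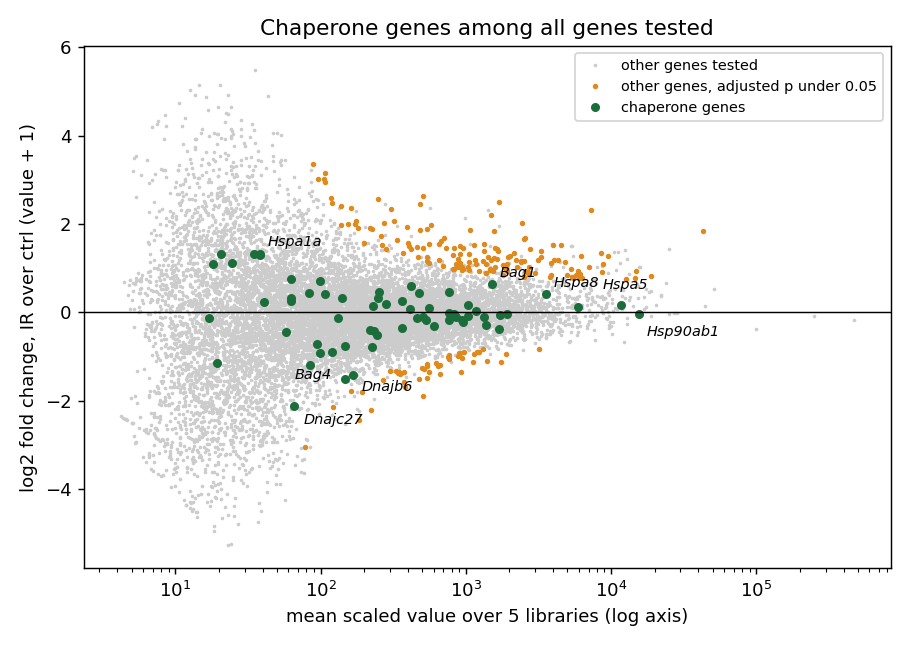
Log2 fold change of IR over ctrl (vertical) against the mean scaled value over the 5 libraries (horizontal, log axis), for 64 chaperone genes (green), other genes called (orange) and other genes (grey). The chaperone genes lie among the grey points, with Hsp90ab1 and Hspa5 close to 0 at the right and Bag4, Dnajb6 and Dnajc27 lowest.

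The precision differed strongly between members. For 28 of the 64 (43.8%) the 95% interval of the log2 fold change stayed within 1 in both directions, that is, within a doubling or halving, against 27.9% of all genes tested. This held for 12 of the 13 members with a mean value of at least 1000. For the other tested members the interval includes a change of that size.

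Hsp90 and Hsp70 made up most of the chaperone RNA. Per kilobase of exon, the Hsp90 genes summed to 6783 and 7146 in IR and to 6345 to 8314 in ctrl, and the Hsp70 genes to 4646 and 5332 in IR and to 4198 to 4770 in ctrl, of 17530 and 18550 for all members in IR and 15950 to 19160 in ctrl. Together the members took 0.839% and 0.798% of the scaled total in IR and 0.815% to 0.968% in ctrl, and Hsp90ab1, Hspa5 and Hsp90b1 alone made up 50.3% to 53.8% of that in every library. Per kilobase of annotated exon, a scale on which genes can be compared, Hsp90ab1 was first with 5079 and 5160 in IR and 4560 to 6280 in ctrl. Hspa5 followed with 2646 and 3285 in IR and 2473 to 2805 in ctrl. Hsp90b1 stood at 1411 and 1667 in IR and at 1245 to 1586 in ctrl, and was below Hspa5 in every library. Bag1 was below Hsp90b1 in every library, at 1409 and 1460 per kilobase in IR, only narrowly so in IR replicate 1, and at 785 to 999 in ctrl. Hspa8 came next with 988 and 964 in IR and 661 to 869 in ctrl, a range that overlaps that of Bag1 in ctrl. Exon lengths are those of all annotated isoforms merged, so levels of genes with many isoforms can be understated.

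Among the Hsp90 genes, Hsp90ab1, the constitutive cytosolic form (chromosome 17, 45567775 to 45573271), had values of 15233 and 15475 in IR and of 18834, 13677 and 15223 in ctrl. The IR values lay inside the ctrl range. On the log2 scale the difference was -0.04 with an SE of 0.18 and a 95% interval of -0.41 to 0.33 (adjusted p = 0.944 in limma). Hsp90aa1, the heat-inducible cytosolic form, was at 1153 and 1254 in IR and at 1759, 1315 and 1365 in ctrl. Both IR libraries were lower than every ctrl library, but the difference did not pass (log2 fold change -0.29, interval -0.73 to 0.15, limma adjusted p = 0.562). The ratio of Hsp90ab1 to Hsp90aa1 per kilobase was 17.3 and 16.2 in IR and 14.0, 13.6 and 14.6 in ctrl, so the constitutive form exceeded the inducible one in every library. With 10 ways to split 5 libraries, no exact permutation test of such a ratio could give a p under 0.1. Hsp90b1, the ER form also known as GRP94, had 5688 and 6721 in IR and 6395, 5845 and 5021 in ctrl, with overlapping groups.

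The constitutive cytosolic Hsp70, Hspa8 (chromosome 9, 40800984 to 40810087), was at 4249 and 4144 in IR and at 3736, 2843 and 2985 in ctrl. Both IR values lay above all ctrl values. The log2 difference of 0.41 ± 0.19 (SE) had an interval of 0.01 to 0.80, yet the adjusted p was 0.322 in limma. Small nucleolar RNA genes lie inside Hspa8 on the same strand. The inducible Hsp70 genes Hspa1a and Hspa1b were low. Hspa1a had values of 47.7 and 68.1 in IR and of 10.1, 26.5 and 39.4 in ctrl, and Hspa1b of 70.1 and 49.6 in IR and of 18.6, 29.2 and 24.0 in ctrl. For both genes the IR libraries were above the ctrl libraries, with log2 fold changes of 1.33 (interval -0.59 to 3.24, limma adjusted p = 0.534) and 1.29 (-0.51 to 3.09, limma adjusted p = 0.520). The coding sequences of these neighbours on chromosome 17 are nearly identical, so reads may be lost or split between them, and how the authors treated such reads is not given in the sources used here. Summed, a step chosen after the values were seen, they had 117.8 and 117.7 in IR, about 126 and 140 reads, against 28.7, 55.7 and 63.4 in ctrl, about 34, 61 and 87 reads. The sum differed by 1.32 ± 0.63 (SE) on the log2 scale, with an interval of 0.01 to 2.62, and did not pass either (adjusted p = 0.329 in limma).

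Hsph1, the inducible Hsp110 that exchanges nucleotide on Hsp70, was at 624 and 502 in IR and at 506, 414 and 332 in ctrl, and the groups overlapped. Hspa4, a constitutive relative of Hsph1, had 1961 and 1829 in IR and 1915 to 1981 in ctrl, with an interval of -0.45 to 0.36. Hspa4l was at 310 and 286 in IR and at 326, 612 and 279 in ctrl, where ctrl replicate 2 stood highest. Hspa2, known best from germ cells, had 445 and 747 in IR and 484 to 576 in ctrl, so the IR libraries lay on either side of ctrl. Hspa12a, a distant relative of Hsp70, had 158 and 161 in IR and 120 to 141 in ctrl, without overlap but with an interval of -0.59 to 1.22 on the log2 scale.

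A list of 13 chaperone genes of the heat shock response, 12 of them in the table, included the largely constitutive Hspa8 and Hsp90ab1. None was called, 6 had positive and 6 negative fold changes, and their median log2 fold change was 0.06 against -0.05 for all genes. Without Hspa8 and Hsp90ab1, 5 were positive and 5 negative, with a median of 0.02. Hspb1 of that list is not analysed here. Dnajb1, the main J-domain partner of inducible Hsp70 in the cytosol, was at 1176 and 1020 in IR and at 948, 905 and 1092 in ctrl (log2 fold change 0.16, interval -0.29 to 0.62). Dnaja1 had values of 194 and 372 in IR and of 214, 327 and 143 in ctrl, so both groups were wide and overlapped; it overlaps Smu1 on the opposite strand. Dnajb4 was at 479 and 515 in IR and at 502 to 621 in ctrl. Bag3, a cofactor that joins Hsp70 to small heat shock proteins in selective autophagy, had 540 and 422 in IR and 425 to 607 in ctrl. In the same libraries 2 of 13 immediate early genes were called higher and 0 lower, Egr1 (log2 fold change 0.76, limma adjusted p = 0.0391) and Ier3 (1.47, limma adjusted p = 0.00151). Of the 13, 12 had positive fold changes, with a median of 0.36. Both IR libraries lay above all ctrl libraries for 8 of them, against 15.2% of all genes. Whether the chaperone and the immediate early genes differ in response was not tested.

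**Figure D2:**
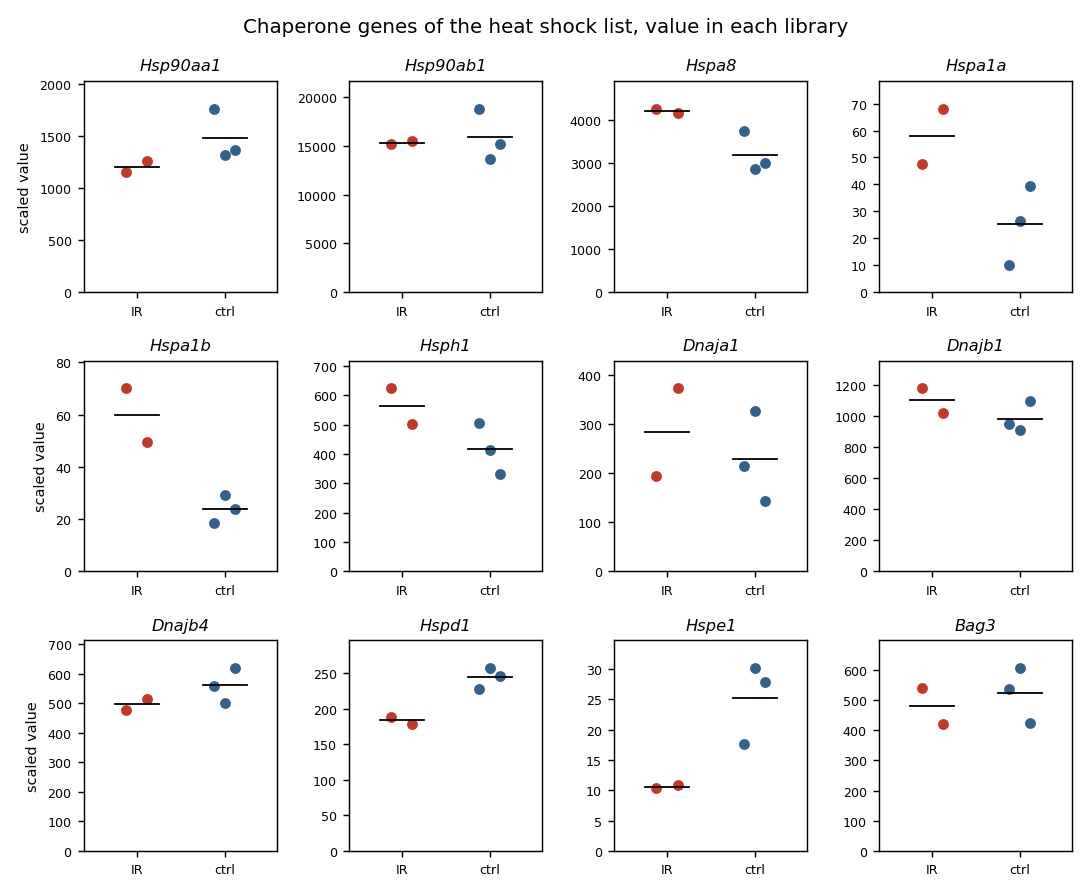
Scaled value (vertical, from 0) of the 12 genes of the heat shock list in the table, the largely constitutive Hspa8 and Hsp90ab1 included, 1 panel a gene, with 1 point per library for IR (2, red) and ctrl (3, blue) and a line at each group's mean. IR lies above ctrl in the panels of Hspa8, Hspa1a and Hspa1b and below it in those of Hsp90aa1, Hspd1 and Hspe1. In the other 6 the groups overlap. Over all genes tested, both IR libraries lay above ctrl for 15.2% and below ctrl for 16.3%.

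Hspa5 and most other ER chaperones overlapped between IR and ctrl. Of 13 members placed in this compartment all were tested, 0 were called, and the median log2 fold change was -0.07. For 9 of them the 95% interval stayed within 1 in both directions. Hspa5, the ER Hsp70 known as BiP (chromosome 2, 34771970 to 34777547), was at 11190 and 13892 in IR and at 11862, 10460 and 10970 in ctrl. IR replicate 2 was highest and IR replicate 1 lay within ctrl. The log2 difference was 0.17 ± 0.18 (SE) with an interval of -0.19 to 0.53 (adjusted p = 0.696 in limma). Dnajb9, a J protein that holds the stress sensor Ire1 in check together with BiP, had 809 and 1207 in IR and 928 to 1117 in ctrl. Dnajb11, which serves BiP in folding, had 772 and 851 in IR and 759 to 978 in ctrl. Dnajc3, an inhibitor of the kinase PERK, had 863 and 780 in IR and 827 to 955 in ctrl, and Dnajc10, a disulfide reductase, had 389 and 455 in IR and 290 to 494 in ctrl. The 3 genes with an ER stress element, Hspa5, Hsp90b1 and Dnajc3, had log2 fold changes of 0.17, 0.11 and -0.11.

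Of the 13 ER members, 3 lay below ctrl in both IR libraries, against 16.3% of all genes. Above ctrl there were 0, against 15.2%. Hspa13, a small Hsp70 of microsomes also called Stch, was at 156 and 151 in IR and at 373, 255 and 195 in ctrl. Both IR values were below all ctrl values, and the interval of the log2 fold change reached from -1.57 to 0.01 (-0.78, limma adjusted p = 0.342). Dnajc16 had 91.6 and 42.8 in IR and 109 to 135 in ctrl, and Dnajc18 had 84.1 and 52.1 in IR and 90.4 to 137 in ctrl, both without overlap. The membrane J proteins Dnajb12 and Dnajb14, which help to degrade misfolded membrane proteins, and Dnajc14 and Dnajc1 overlapped between groups.

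Outside the members, 1 of 20 genes of ER folding and the unfolded protein response was called lower and 0 higher. Over all genes tested, 1.50% were called in either direction. Eif2ak3, which encodes PERK, the ER kinase that slows translation under stress, was at 1151 and 1270 in IR and at 1966, 2883 and 2182 in ctrl (log2 fold change -0.94, limma adjusted p = 0.0250). The list's median was -0.10. Hyou1, the ER Hsp110, had 1022 and 1050 in IR and 891 to 956 in ctrl and was not called (limma adjusted p = 0.775). None of the 8 subunits of the cytosolic chaperonin TRiC passed, with a median of 0.02, and none of 14 cochaperones of Hsp90 and Hsp70, with a median of -0.12. Stip1, which bridges Hsp70 and Hsp90, was at 729 and 694 in IR and at 597, 480 and 395 in ctrl without overlap (log2 fold change 0.56, limma adjusted p = 0.322). It was chosen after its values were seen. Of the mitochondrial chaperones and proteases that are not members, 8 were tested and 0 passed, with a median of -0.05.

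In mitochondria, Hspa9, the matrix Hsp70 called mortalin, was at 1275 and 1279 in IR and at 1477, 1373 and 1261 in ctrl, with an interval of -0.53 to 0.33. The chaperonin subunit Hspd1 had 189 and 178 in IR and 228, 258 and 247 in ctrl, and its lid Hspe1 had 10.3 and 10.9 in IR and 17.7, 30.2 and 27.8 in ctrl. Both were below ctrl in both IR libraries, with log2 fold changes of -0.41 (interval -1.16 to 0.34, limma adjusted p = 0.643) and -1.14 (-3.61 to 1.33, limma adjusted p = 0.70). The annotation names 5 pseudogenes of Hspd1 and 6 of Hspe1, and their starts overlap on opposite strands, so reads may be shared or lost. Hspe1 rested on about 11 and 13 reads in IR and 21 to 38 in ctrl. Dnaja3, the J partner of Hspa9, had 251 and 351 in IR and 176 to 265 in ctrl. Dnajc11, of the cristae-organizing complex, had 303 and 306 in IR and 257 to 280 in ctrl, and Dnajc15, a relative of the import motor's J protein, had 153 and 64.7 in IR and 115 to 212 in ctrl. Of the 8 mitochondrial members none was called, and their median log2 fold change was -0.25. Dnajc19 is not analysed here.

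**Figure D3:**
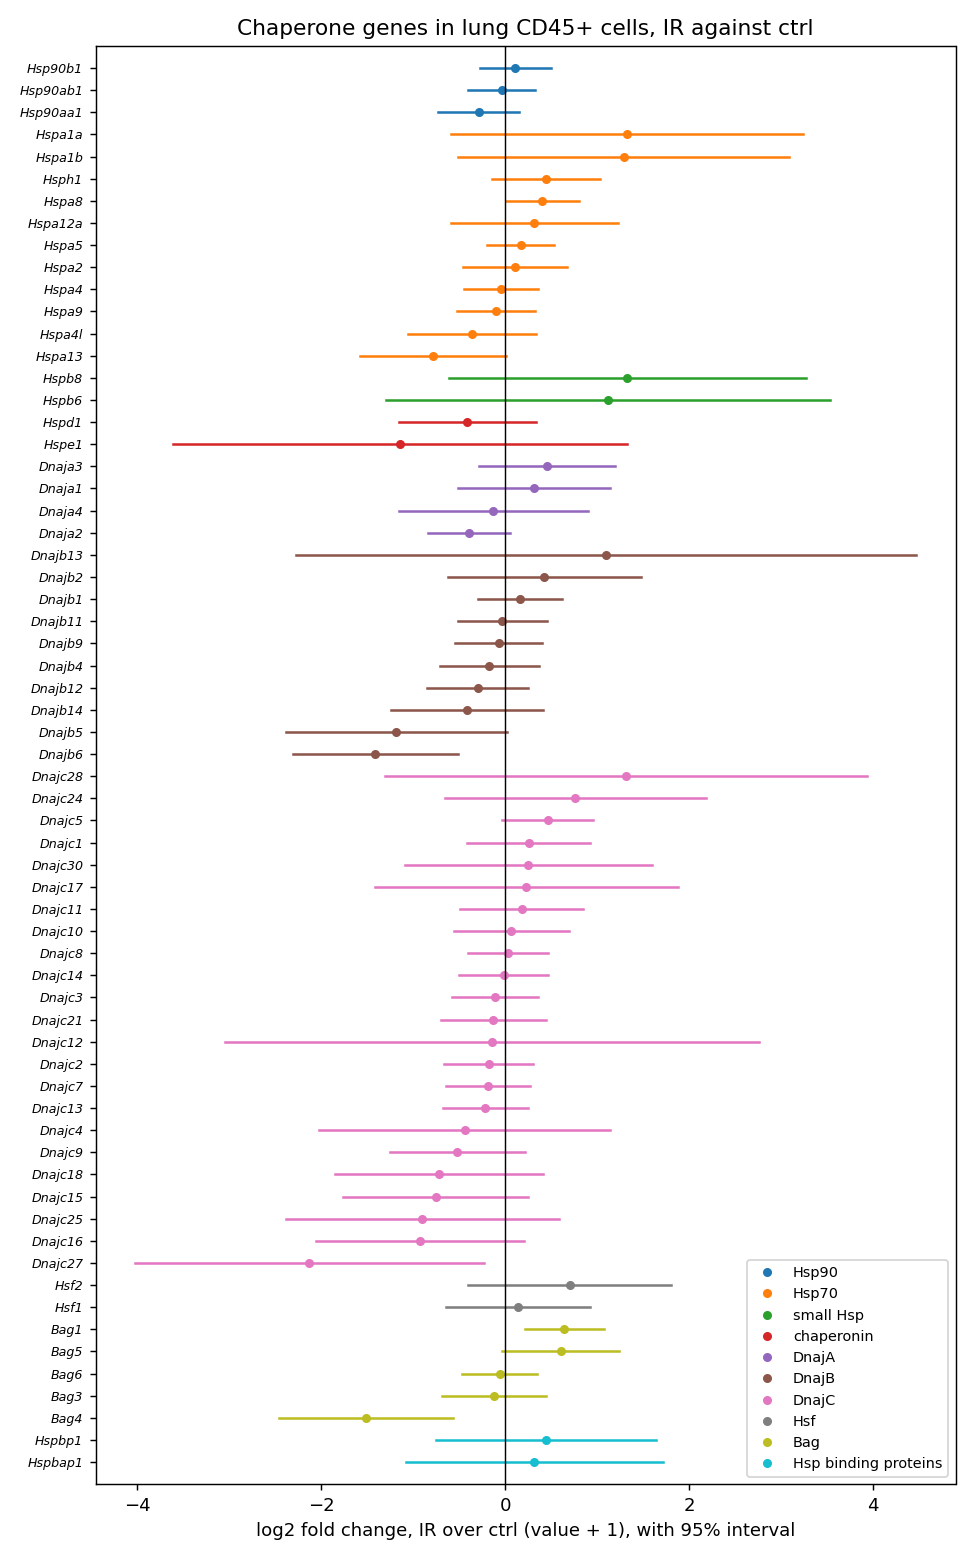
Log2 fold change of IR over ctrl (horizontal; points) with 95% intervals (lines) for the 64 chaperone genes tested, grouped and coloured by family. Intervals of abundant genes such as Hsp90ab1 and Hspa5 are narrow and include 0, and those of Bag1, Bag4, Dnajb6, Dnajc27 and Hspa8 exclude it before adjustment.

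The smallest p-values of the whole group belonged to Bag4, Dnajb6 and Bag1. Bag4, also known as silencer of death domains, which holds back signalling of TNF receptors (chromosome 8, 25764538 to 25785287), was at 67.3 and 69.7 in IR and at 238, 175 and 183 in ctrl. The mean was 68.5 ± 1.70 in IR (SD, n = 2) and 199 ± 34.3 in ctrl (SD, n = 3). On the log2 scale this is -1.51 ± 0.46 (SE) with an interval of -2.46 to -0.57, which did not pass (adjusted p = 0.0995 in limma). Dnajb6, a J protein that suppresses aggregation of polyglutamine proteins (chromosome 5, 29735688 to 29818134), had 68.2 and 100 in IR and 244, 228 and 194 in ctrl. The groups were far apart, with a log2 difference of -1.41 ± 0.43 (SE), but the adjusted p was 0.106 in limma. Dnajb6 is also the class B gene for which a 3-unit heat shock element was printed above. Predicted genes overlap both Bag4 and Dnajb6 on the opposite strand, and the sources used here do not give the strand setting of the counting.

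Bag1, which couples Hsp70 to the proteasome and binds Bcl2 (chromosome 4, 40936398 to 40948294), had the opposite sign. It was at 1901 and 1969 in IR and at 1347, 1059 and 1329 in ctrl, so the groups were separate. It averaged 1935 ± 48.2 in IR (SD, n = 2) and 1245 ± 162 in ctrl (SD, n = 3). The log2 difference of 0.64 ± 0.21 (SE) did not pass (adjusted p = 0.130 in limma). Bag5 likewise had 470 and 567 in IR against 364, 242 and 444 in ctrl (0.60, limma adjusted p = 0.360). Bag6, which escorts tail-anchored proteins to membranes, overlapped between groups, with 1735 and 1636 in IR and 1713 to 1833 in ctrl and an interval of -0.47 to 0.35. Bag2, an inhibitor of the ubiquitin ligase Chip, was below the filter, with 1.9 and 0 in IR and 14.4, 0 and 7.3 in ctrl. Per kilobase, Bag1 exceeded Bag4 by 147-fold in each IR library and by 29.5-fold, 31.5-fold and 37.8-fold in the ctrl libraries, a pair chosen after its values were seen.

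**Figure D4:**
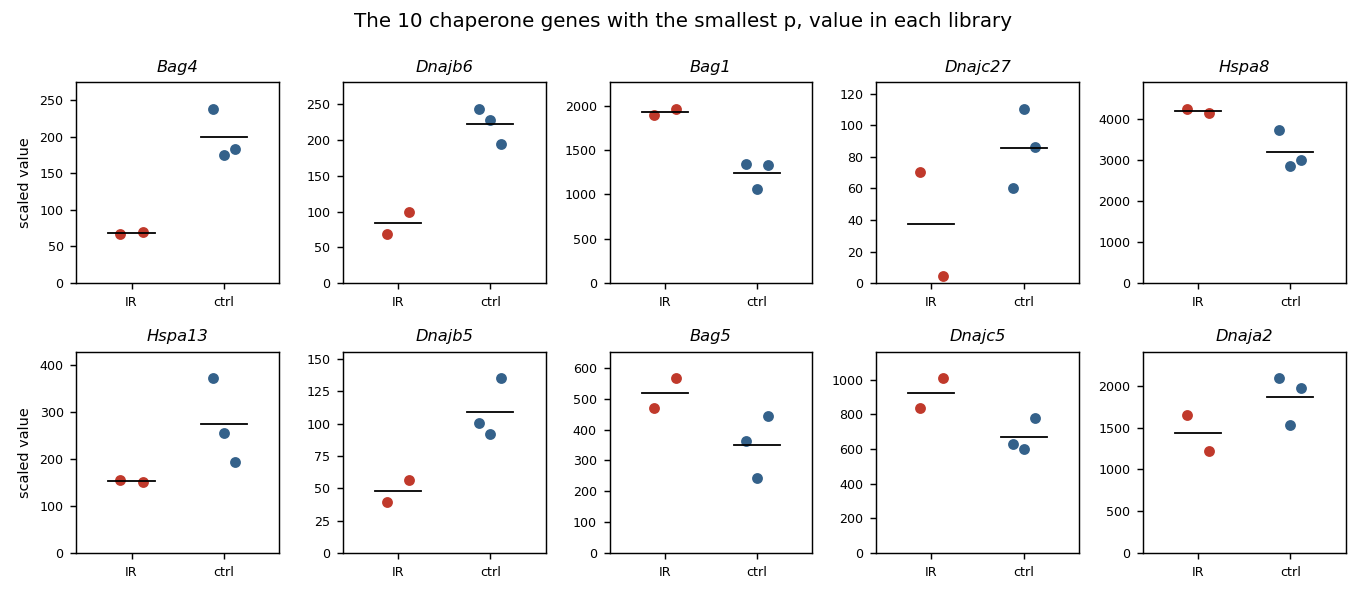
Scaled value (vertical, from 0) in each IR (2, red) and ctrl (3, blue) library for the 10 chaperone genes with the smallest unadjusted p, with a line at each group's mean. The groups overlap in the panels of Dnajc27 and Dnaja2. Choosing genes by small p favours groups that do not overlap, so the other 8 panels are a description, beside 15.2% of all genes above and 16.3% below ctrl in both IR libraries.

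The values of Dnajc27 and Dnajc25 depended on 1 library. Dnajc27, a small GTPase with a J domain, had 70.1 and 4.2 in the IR libraries, about 75 and 5 reads, against 60.0, 111 and 86.1 in ctrl. IR replicate 2 was far below all other libraries, and the log2 fold change was -2.13 (interval -4.02 to -0.23, limma adjusted p = 0.278). In edgeR it was -1.20. Dnajc25 had 190 and 22.7 in IR, against 91.2, 178 and 118 in ctrl. Without IR replicate 1, where the lone IR library is assumed to vary like the ctrl libraries, these were the 2 members called, both lower (adjusted p = 0.00595 for Dnajc27 and 0.0244 for Dnajc25), when 4.56% of all genes were called lower. Without IR replicate 2, the log2 fold change was -0.24 for Dnajc27 (limma adjusted p = 0.932) and 0.61 for Dnajc25 (limma adjusted p = 0.764). Dnajc25 overlaps a predicted gene on the same strand.

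Among other class C genes, Dnajc5, the cysteine string protein that guards vesicle fusion proteins, was at 837 and 1009 in IR and at 630, 601 and 779 in ctrl, without overlap (0.46, interval -0.03 to 0.96, limma adjusted p = 0.366). Dnajc13, which acts on endosomes in retromer sorting, had 924 and 822 in IR and 947 to 1136 in ctrl. The cytosolic Dnajc7, which links Hsp70 and Hsp90, had 882 and 850 in IR and 934 to 1061 in ctrl. Dnajc9, a histone chaperone, had 232 and 161 in IR and 245 to 301 in ctrl, and Dnajc2, a ribosome-associated J protein, had 664 and 746 in IR and 755 to 861 in ctrl. In these 4 both IR values were below ctrl, and none passed. Of the 23 class C genes tested, 6 were below ctrl in both IR libraries, against 16.3% of all genes. Another 2 were above ctrl in both, against 15.2% of all genes. Dnajc8, a splicing-associated J protein, had 1148 and 1220 in IR and 1081 to 1270 in ctrl. Of the 37 tested DnaJ genes of all classes, 14 had positive and 23 negative fold changes, with 0 called and a median of -0.13. Over all genes tested, 5976 were positive and 6801 negative, with a median of -0.05. The median was 0.10 in class A (4 genes), -0.12 in class B (10) and -0.13 in class C (23). Dnaja2, the most abundant class A gene, had 1652 and 1217 in IR and 2094, 1537 and 1981 in ctrl, with overlap. Dnajb5 had 39.2 and 56.3 in IR and 92.3 to 135 in ctrl without overlap (-1.18, limma adjusted p = 0.342). Dnajc6, auxilin, was read at 22.6 in ctrl replicate 3 and listed at 0 in the other libraries. The largest positive fold changes of classes B and C were those of Dnajb13, a ciliary J protein with 8.4 and 34.5 in IR and 24.5, 0 and 23.3 in ctrl, and Dnajc28, with 45.8 and 18.5 in IR and 4.2, 15.5 and 19.7 in ctrl. Both groups overlapped in each. Dnaja4, Dnajb2, Dnajc4, Dnajc12, Dnajc17, Dnajc21, Dnajc24 and Dnajc30 also overlapped between groups. The pseudogene Hspa9-ps1 was at 10.3 and 0 in IR and at 0, 0 and 2.9 in ctrl.

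The regulators were modest in level. Hsf1, the master factor of the heat shock response, had 245 and 232 in IR and 217, 153 and 305 in ctrl, so IR lay within ctrl (0.14, interval -0.64 to 0.92). Hsf2 had 146 and 109 in IR and 103, 71.2 and 62.7 in ctrl, both IR values being above ctrl (0.70, interval -0.40 to 1.81, limma adjusted p = 0.576). Hsf1 is known to be controlled largely at the protein level, which RNA values do not measure.

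The small heat shock proteins Hspb8 and Hspb6 were low. Hspb8, the partner of Bag3 in autophagy, had 72.9 and 38.6 in IR and 27.9, 20.1 and 15.3 in ctrl. Hspb6 had 29.0 and 37.8 in IR and 27.9, 4.5 and 23.3 in ctrl. In both, IR lay above ctrl without passing. Cryab, a small heat shock protein whose symbol falls outside the rule, was at 39.3 and 9.2 in IR and at 19.4, 12.8 and 0 in ctrl, with overlap. The log2 fold change of Hspb8 was 1.33 with an interval of -0.61 to 3.27 (adjusted p = 0.538 in limma), and that of Hspb6 was 1.12 with an interval of -1.29 to 3.54 (adjusted p = 0.70 in limma). The epithelial marker sum given above was higher in IR, mostly through Scgb1a1, and Epcam was lower, while 3 fibroblast markers summed to 0.9 and 61.3 in IR and to 21.9, 0 and 26.9 in ctrl, and their part in these values was not tested. Hspbp1, a nucleotide exchange factor of Hsp70 with 127 and 73.1 in IR and 57.4 to 84.9 in ctrl, and Hspbap1, which binds Hspb1, with 66.4 and 70.6 in IR and 32.0 to 84.0 in ctrl, overlapped between groups.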

How the data were processed

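RNA libraries were made with a strand-preserving SMARTer kit (Pico Input), per the labels' protocols. HISAT2, HTSeq and mm10 are named per the submitters' processing notes; strand setting, annotation and scaling were not given in the sources used here. As deposited, the table holds a signal per gene, read counts scaled by the authors, with 1 decimal. Values step in multiples of 1 value per library. With that step, 99.5% to 100% of values up to 1000 lay within 0.25 of a whole number, and 67.8% (ctrl replicate 3) to 100% of the lowest values within 0.1, so reads are approximate and no read count was the basis of the main test. Libraries were grouped by the treatment label, and replicate numbers follow accession order and pair nothing.

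The filter required 10 or more in 2 or more libraries. Values were fitted as log2(value + 1) with limma 3.58.1 (R 4.3.3, statmod 1.5.0; mean trend, robust, no covariate, two-sided), with Benjamini-Hochberg adjustment across every gene that passed the filter. The pseudocount shrinks the ratio between low values, while averaging logs lets 1 low library move a low gene's fold change beyond the ratio of the group means. Intervals are 95% and unadjusted; read numbers carry counting error only. edgeR 4.0.16 (TMM) was run on the approximate reads as an alternative. The procedure was also run on simulated data, whose outcome is not given here and is not used as support for any result. Members and lists were chosen with earlier results of these data known, and members were placed in families by name and in compartments by hand. Genes are named by role (heat shock response, ER, mitochondrial, Hsf and Bag members), by the 10 smallest p and by level or fold change within a family or compartment; other members are given as further examples. Coordinates and exon lengths are from GENCODE vM21 (GRCm38, the assembly of mm10), promoters from RefSeq (GRCm38.p6).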

Additional observations from a re-analysis of the deposited data

How the results depend on the processing

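The count of 0 called members held under pseudocounts of 0.5 and 5, rescaling to equal totals or by median-ratio factors, no filter, a mean of at least 50, robust estimation off, array weights and edgeR. With 1 library left out it was 0 to 2 (0 higher, 0 to 2 lower), and the 2 were Dnajc25 (-2.40) and Dnajc27 (-4.01) without IR replicate 1. The members' median was -0.154 after rescaling to totals, which moved the median of all genes from -0.05 to -0.17, and -0.064 to 0.078 with 1 library left out. Over all genes, 192 calls became 30 to 1042 with 1 library left out. Under the other alternatives below, signs turned for members that were not called. After rescaling to totals these were Dnajc10 (-0.054), Dnajc8 (-0.090), Hsp90b1 (-0.010) and Hspa2 (-0.015). With median-ratio factors it was Dnajc14 (0.0058), and with edgeR Dnajc12 (0.080). With array weights these were Dnaja4 (0.160), Dnajc10 (-0.029), Dnajc12 (0.091), Dnajc14 (0.027) and Hsf1 (-0.051). With 1 library left out, signs turned for Bag3 (-0.294 to 0.0622), Dnaja1 (-0.154 to 0.786), Dnaja4 (-0.52 to 0.167), Dnajb11 (-0.0979 to 0.0931), Dnajb13 (-0.447 to 2.06), Dnajb9 (-0.36 to 0.217), Dnajc1 (-0.0114 to 0.485), Dnajc10 (-0.167 to 0.216), Dnajc12 (-1.37 to 1.09), Dnajc14 (-0.0944 to 0.0669), Dnajc25 (-2.4 to 0.606), Dnajc4 (-1.41 to 0.538), Dnajc8 (-0.0186 to 0.098), Hsf1 (-0.109 to 0.387), Hsp90ab1 (-0.141 to 0.0896), Hsp90b1 (-0.00955 to 0.231), Hspa2 (-0.267 to 0.48), Hspa4 (-0.0978 to 0.00277) and Hspbap1 (-0.0612 to 0.621), each given as the range over these fits; Dnajc25 was called at its low end. The cause was not tested. Summing Hspa1a and Hspa1b, chosen after seeing the data, gave 1.32 and no call. Depth limits the low members: Hspe1, Hspb6, Hspb8, Hspa1a and Hspa1b rested on under 100 approximate reads per library. The same held for the tested Dnajb13, Dnajc12, Dnajc17, Dnajc28 and Dnajc30. Bag4 rested on about 72 and 83 reads in IR.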
